A study of Lobosphaera incisa with 32 samples.

Results

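The 150 genes described here are those of the green microalga Lobosphaera incisa whose transcript level differed most between 2 light intensities after 72 h of nitrogen (N) starvation. They were chosen from the transcript levels themselves. Of 16722 genes, 8350 had a level of at least 10 FPKM (read fragments scaled to transcript length and to the depth of the profile) under at least 1 of both lights at 72 h. For these the light ratio was taken as log2((FPKM under high light + 1)/(FPKM under normal light + 1)), and the 75 genes with the highest and the 75 with the lowest light ratio form the higher list and the lower list. The light ratio is therefore a description of the lists and no test of them. The 12 h and replete cultures were not used to choose any member.

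The cultures were of 1 strain, SAG 2468, grown axenically. After 72 h without N, cells were sampled under high light (HL, 150 µmol photons per square metre per second) and under normal light (NL, 75 in the same unit). A culture starved for 12 h under HL and a replete culture in logarithmic growth, sampled at 0 h under NL, completed the set. Each of the 4 conditions was labelled with 2 biological replicates of 4 technical replicates, 32 samples in all. A 12 h culture under NL and a replete culture under HL were not analysed here. The 12 h HL culture differs from the replete culture in N supply, time and light together, and these cannot be told apart in that comparison.

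L. incisa is known for storing triacylglycerol rich in arachidonic acid when N is withdrawn. In green algae generally, N starvation slows growth and chlorophyll synthesis while light absorption goes on, so that a higher light intensity delivers more energy than the starved cell can use for growth. Such cells commonly adjust light harvesting, photoprotection, antioxidant defence and carbon storage. The files do not pair the gene IDs with names, so no role is given for any member.

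The deposited FPKM are 1 pooled value per condition. The authors' mean normalised counts allowed the whole-number counts of 2 libraries per condition to be solved exactly, and these are called the deeper and the shallower library of a condition, since no replicate number goes with them. Their totals ranged over 30976126 to 139975475 counts. The solved counts made up 62.3% to 78.9% of the pooled expected counts of each condition. No source used here says whether a library is 1 culture with its technical replicates summed, and the spread between libraries may be partly technical. Among the 8350 genes, the libraries of 1 condition lay at least 2-fold apart for 6.81% of genes at 72 h HL, 0.012% at 72 h NL, 2.54% at 12 h HL and 9.28% in the replete culture. The NL libraries were thus close to each other, and the HL libraries at 72 h, like the replete ones, were not. No label goes with a solved library, so whether both 72 h HL libraries came from cultures in the same state, or whether 1 of them belongs to another condition, was not tested. Every light ratio pools both and rests on both being 72 h HL cultures, as the condition is labelled. The deeper HL library was at least 2-fold from the mean of the NL libraries for 707 of the 8350 genes, and the shallower one for 385.

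The higher list held genes that were scarce under NL and moderately abundant under HL. Its median level was 34.6 FPKM at 72 h HL and 4.19 FPKM at 72 h NL. The light ratio ran over 1.96 to 6.68 on the log2 scale, with a median of 2.52, against a median of 0.02 over the 8350 genes. All 75 reached 10 FPKM under HL, and 25 also did so under NL. The lower list had a median of 9.46 FPKM at 72 h HL and 38.9 FPKM at 72 h NL. Its light ratio ran over -3.35 to -1.15 with a median of -1.64, so the lower list was both less extreme and narrower. All of its 75 genes reached 10 FPKM under NL, and 37 did so under HL. Every member differed at least 2-fold between both lights, which 3.14% of the 8350 genes did upward and 1.34% downward. At the border of the higher list, the last gene inside and the first gene outside both had a light ratio of 1.96. At the border of the lower list, both had -1.15 and -1.14. These FPKM are shares of the RNA of a whole culture, and a change in every cell and a change in the mix of cell states cannot be told apart.

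**Figure D1:**
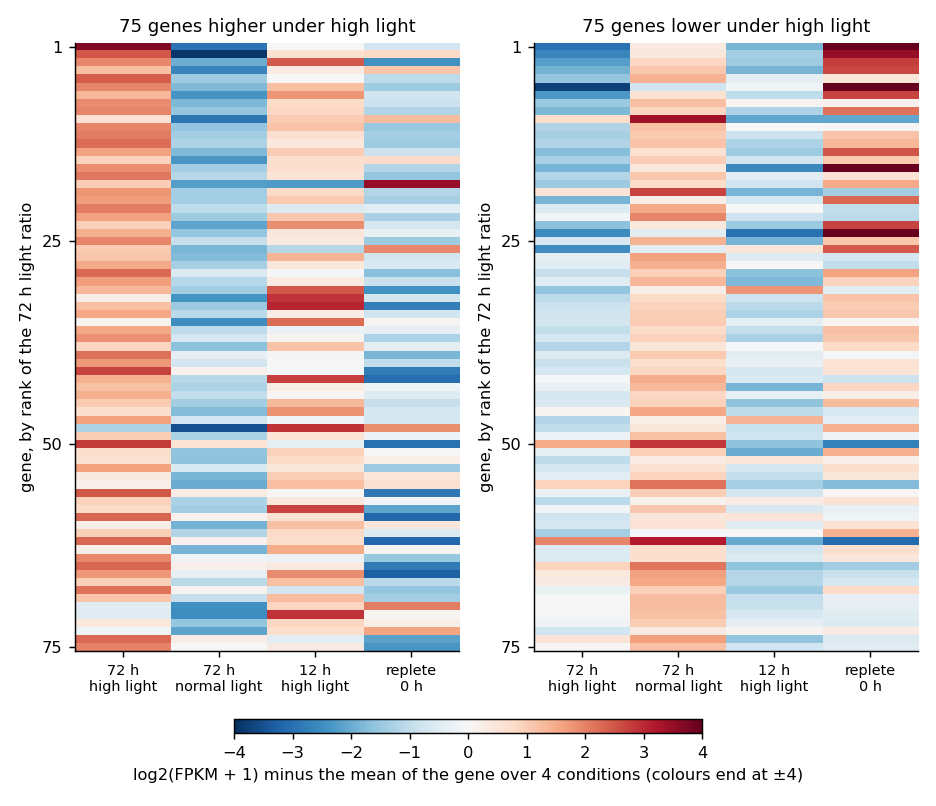
Level of each of the 150 genes in the 4 conditions, as log2(FPKM + 1) minus the mean of that gene over the 4 conditions (red above the mean, blue below). Rows run by rank of the light ratio in the 75 genes higher under HL on the left and the 75 genes lower under HL on the right. The 12 h column of most higher genes is on the red side, like 72 h HL, and that of most lower genes on the blue side.

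The largest light ratio belonged to g10396, with 311 FPKM at 72 h HL and 2.05 FPKM at 72 h NL, a ratio of 152. The second, g10395, had 183 FPKM at HL and 1.23 FPKM at NL, a ratio of 149. Their ID numbers are consecutive, and their light ratios of 6.68 and 6.37 stood far above that of the next gene, 3.87. In CPM (counts scaled to library size, with TMM normalisation), g10396 was at 1350 and 21.3 in the deeper and shallower HL libraries, against 5.39 and 5.19 in the NL libraries. For g10395 the values were 295 and 4.40 in the HL libraries, against 1.21 and 1.02 in the NL libraries. Both genes were above NL in both HL libraries, and the deeper library was far above the shallower one.

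At the other end, g12696 had 9.03 FPKM at 72 h HL and 101 FPKM at 72 h NL. Its CPM were 7.77 and 4.45 in the HL libraries, against 75.5 and 71.7 in the NL libraries. The second lowest, g3902, had 17.4 FPKM at HL and 155 FPKM at NL. Its CPM were 23.9 and 13.0 in the HL libraries, against 164 and 183 in the NL libraries. For these genes the HL libraries lay within 2-fold of each other and both far below NL.

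The most abundant gene of the higher list stood apart by its level. It had 6932 FPKM at 72 h HL and 943 FPKM at 72 h NL, and its CPM were 852 and 6235 in the HL libraries, against 291 and 581 in the NL libraries. Here the shallower HL library carried the difference. The most abundant gene of the lower list had 552 FPKM at HL and 1562 FPKM at NL, with CPM of 380 and 269 in the HL libraries, against 945 and 930 in the NL libraries.

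The higher list took 2.23% of the summed FPKM of all genes at 72 h HL and 0.335% at 72 h NL, and without its most abundant gene 1.04% and 0.164%. The lower list took 0.470% at 72 h HL and 1.53% at 72 h NL. In the remaining pair the higher list took 1.18% at 12 h HL and 2.70% in the replete culture, or 0.928% and 0.835% without its most abundant gene. The lower list took 0.337% at 12 h HL and 2.67% in the replete culture.

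Because the HL libraries differed, each was set against the mean of the NL libraries on its own, with 0.1 CPM added before taking log2. In the deeper HL library the higher list had a median of 3.13, and all 75 genes were at least 2-fold above NL (4.9% of the 8350 genes). In the shallower HL library the median was 2.14, with 64 genes at least 2-fold above NL (2.63%), 10 within 2-fold and 1 at least 2-fold below. For the lower list the medians were -1.77 in the deeper and -1.94 in the shallower HL library, with 72 and 63 genes at least 2-fold below NL (3.57% and 1.98%). Both HL libraries passed 2-fold in the direction of the list for 64 of the 75 higher genes (1.9% of the 8350 genes) and 60 of the 75 lower genes (0.766%). Both HL libraries lay above both NL libraries for 73 higher genes (33.5% of all) and below them for 72 lower genes (19.8%). All of these counts rest on the libraries that chose the members. The larger change was in the deeper HL library for 62 of 75 higher genes and for 28 of 75 lower genes, against 3909 of the 8350 genes.

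**Figure D2:**
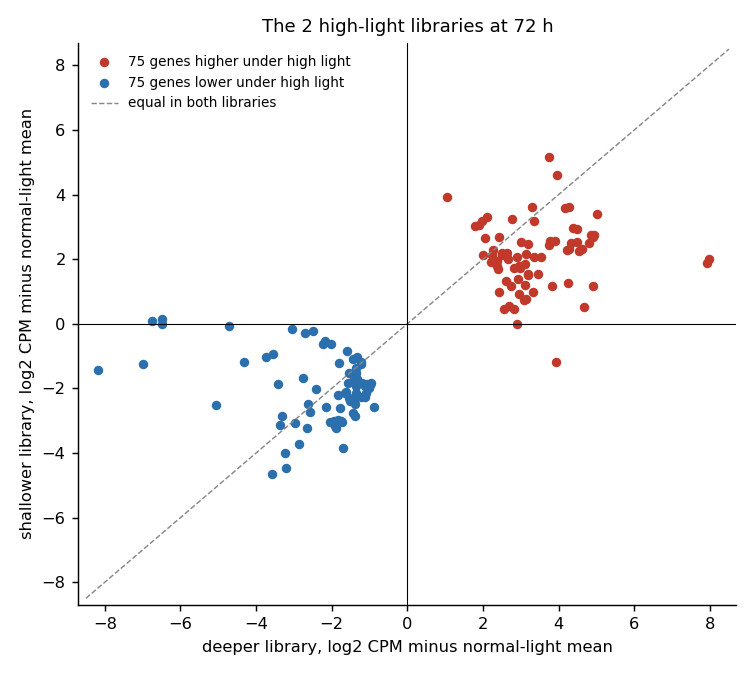
Difference of each 72 h HL library from the mean of the NL libraries for the 150 members, in log2 CPM, with the deeper library on the horizontal and the shallower on the vertical axis. Points on the dashed line changed equally in both libraries. A group of lower genes lies far to the left near 0 on the vertical axis, and the pair of higher genes at the far right reaches 7.97 and 7.93 in the deeper library but 1.99 and 1.89 in the shallower.

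The libraries disagreed most sharply for a minority of members. The 72 h HL libraries lay at least 4-fold apart for 22 higher genes (29.3%) and 14 lower genes (18.7%), against 1.16% of the 8350 genes. The same libraries chose the members, so these shares are a description and no test. The replete libraries lay as far apart for 6 genes of each list (95 of the 8350). The 12 h libraries did so for 4 higher and 0 lower genes (15 of the 8350). In 12 lower genes the shallower HL library was within 2-fold of NL and the deeper one at least 2-fold below it, as in 2.79% of the 8350 genes. The most abundant of these had 33.6 and 3316 CPM in the deeper and shallower HL libraries, against 3027 and 3006 CPM in the NL libraries. At 12 h HL it had 81.9 and 39.9 CPM, against 48.2 and 9.66 CPM in the replete libraries. In this gene the shallower HL library was at the NL level and the deeper one near that of the unstarved and briefly starved cells. Another such gene had 14.6 and 369 CPM in the HL libraries, against 374 and 396 CPM in the NL libraries. In the higher list, 1 gene ran in opposite directions, with 422 CPM in the deeper and 12.1 CPM in the shallower HL library, against 29.0 and 26.1 CPM in the NL libraries. These genes were picked for their disagreement after their values were seen. When the lists were chosen again from the deeper HL library alone, they shared 66 of 75 higher and 36 of 75 lower genes with the lists described here. From the shallower library alone they shared 52 and 50. The lower list chosen from the deeper library shared the fewest genes.

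Whether the other HL culture resembled 72 h HL was asked with the comparison of 12 h HL over the replete culture, which shares no library with the light ratio. The members of the higher list were mostly higher at 12 h HL. Their median level was 23.6 FPKM at 12 h HL and 5.40 FPKM in the replete culture, and the median log2 ratio of FPKM + 1 was 1.73, against 0.19 over the 8350 genes. Of the 75 genes, 50 were at least 2-fold higher at 12 h (11.3% of the 8350 genes were), 22 were within 2-fold and 3 were at least 2-fold lower. The lower list had 11.9 FPKM at 12 h HL and 23.3 FPKM in the replete culture as medians, and a median log2 ratio of -1.03. Of its 75 genes, 39 were at least 2-fold lower at 12 h (4.97% of the 8350 genes were), 32 were within 2-fold and 4 were at least 2-fold higher.

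**Figure D3:**
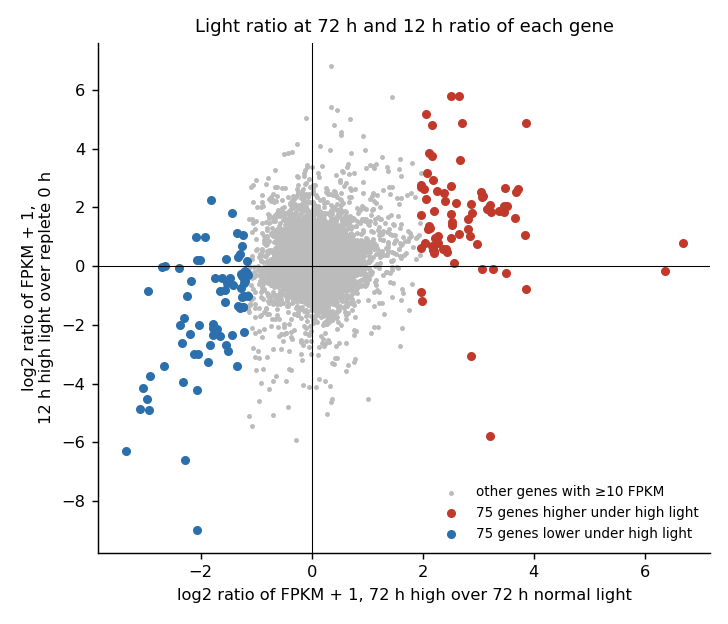
Log2 ratio of FPKM + 1 at 72 h, HL over NL, on the horizontal axis and of 12 h HL over the replete culture on the vertical axis, with 1 point per gene. Grey points are the other genes with at least 10 FPKM. Of the red points (higher list) 66 of 75 lie above 0 on the vertical axis, where 63.3% of all genes with at least 10 FPKM do, and of the blue points (lower list) 61 of 75 lie below it, where 36.7% do.

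The solved library counts gave this comparison a test, edgeR's quasi-likelihood test with Benjamini-Hochberg adjustment over 15182 genes. Its estimate of spread used all 8 libraries, so the 72 h libraries that chose the members also entered each SE and p-value. At an adjusted p under 0.05, 40 higher-list genes rose at 12 h HL over the replete culture, 2 fell and 33 did not pass, where 16.1% of all tested genes and 11.6% of the 8350 rose. The median log2 fold change of the 75 genes was 1.8. In the lower list 42 genes fell, 1 rose and 32 did not pass, where 8.6% of all tested genes and 8.95% of the 8350 fell, and the median was -1.32. The median of all tested genes was 0.08. Both 12 h libraries lay above both replete libraries for 58 higher genes (34.1% of the 8350 genes) and below them for 4, and below them for 51 lower genes (26% of the 8350) and above them for 6. Leaving out the shallower replete library or the deeper 12 h library left fewer higher-list genes called higher. The median log2 fold change of the higher list was then 1.76 and 1.30.

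The lists chosen again from 1 HL library differed in this test, in which 11.6% of the 8350 genes rose and 8.95% fell. From the deeper HL library alone, 37 of 75 higher genes rose at 12 h and 1 fell, and 17 of 75 lower genes fell and 4 rose. From the shallower HL library alone, 41 higher genes rose and 1 fell, and 52 lower genes fell and 1 rose. The count for the higher genes moved little between the libraries, and that for the lower genes was 17 with the deeper and 52 with the shallower library. These alternatives were chosen after seeing the data.

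The genes with the largest changes at 12 h were far from their replete level in both libraries. The rises and falls given here were picked by this same comparison, so their fold changes and p-values describe them and are no test. The largest rise in FPKM was that of g13788, with 73.9 FPKM at 12 h HL and 0.34 FPKM in the replete culture. Its CPM were 137 and 150 at 12 h HL, against 0.66 and 0.88 in the replete libraries, and its log2 fold change was 7.57 ± 0.55 (SE, n = 2 libraries each, edgeR adjusted p = 0.000141). The same gene had 19.9 FPKM at 72 h HL and 2.31 FPKM at 72 h NL. The next, g14547, had 337 FPKM at 12 h HL and 5.13 FPKM in the replete culture, with CPM of 739 and 683, against 12.2 and 13.5. Its log2 fold change was 5.79 ± 0.73 (SE, edgeR adjusted p = 0.00149), and it had 134 FPKM at 72 h HL and 22.8 FPKM at 72 h NL. Both genes were more abundant at 12 h HL than at 72 h under either light.

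The largest fall was that of g1575, with 2.92 FPKM at 12 h HL and 1963 FPKM in the replete culture. Its CPM were 2.13 and 1.81 at 12 h HL, against 1545 and 1461 in the replete libraries, and its log2 fold change was -9.57 ± 0.80 (SE, edgeR adjusted p = 0.000243). At 72 h it had 4.49 FPKM under HL and 21.8 FPKM under NL. For g11272 there were 22.6 FPKM at 12 h HL and 2260 FPKM in the replete culture, with CPM of 17.8 and 10.6, against 1805 and 1543. Its log2 fold change was -6.88 ± 0.57 (SE, edgeR adjusted p = 0.000231), and it had 37.2 FPKM at 72 h HL and 185 FPKM at 72 h NL. These transcripts were among the abundant ones of the replete cell and stayed far below that level in all 3 starved cultures.

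The genes at the ends of the light ratio behaved differently at 12 h. The pair with the highest light ratios did not change beyond the spread of the libraries. For g10396, CPM were 73.5 and 5.76 at 12 h HL, against 44.0 and 7.63 in the replete libraries, and the log2 fold change was 0.61 ± 1.57 (SE, edgeR adjusted p = 0.811). For g10395, CPM were 51.1 and 21.7 at 12 h HL, against 70.2 and 15.8 in the replete libraries, and the log2 fold change was -0.24 ± 1.34 (SE, edgeR adjusted p = 0.919). The lowest pair fell. For g12696, CPM were 15.2 and 8.06 at 12 h HL, against 1249 and 1072 in the replete libraries, a log2 fold change of -6.64 ± 0.47 (SE, edgeR adjusted p = 0.000126). For g3902, CPM were 50.9 and 20.1 at 12 h HL, against 1280 and 1556 in the replete libraries, a log2 fold change of -5.32 ± 0.54 (SE, edgeR adjusted p = 0.000598).

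**Figure D4:**
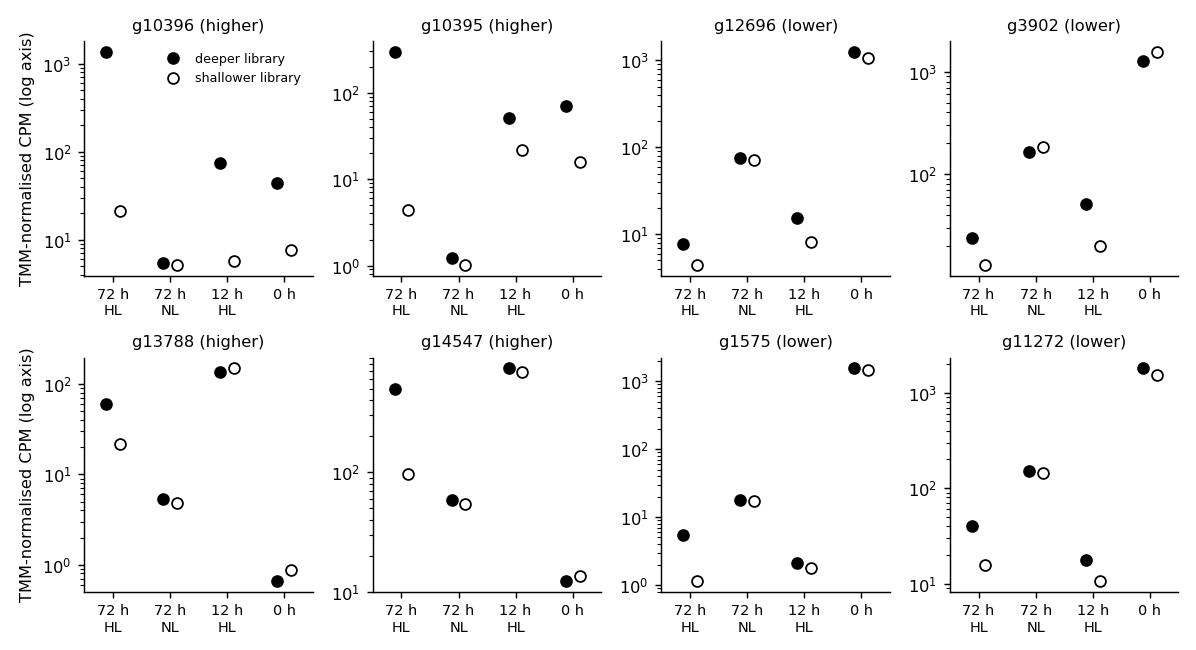
TMM-normalised CPM of the 8 genes named by ID in every solved library, on a log axis, with the list of each gene in parentheses. Filled circles are the deeper and open circles the shallower library of each condition (HL high light, NL normal light, 0 h replete). The HL libraries of g10396 lie at 1350 and 21.3 CPM, whereas the NL libraries of every gene nearly coincide.

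Some members moved against their list at 12 h. The 2 higher-list genes that fell included the most abundant one, with 1495 FPKM at 12 h HL and 12534 FPKM in the replete culture (log2 fold change -3.58 ± 0.95, SE, edgeR adjusted p = 0.0268). The other was the gene whose HL libraries ran in opposite directions, with 44.8 FPKM at 12 h HL and 2526 FPKM in the replete culture (-5.81 ± 1.35, SE, edgeR adjusted p = 0.0155). By pooled FPKM, both were abundant in the replete culture and lower in every starved one. For the most abundant gene the libraries overlapped, with 852 and 6235 CPM at 72 h HL, against 3219 and 8865 CPM in the replete libraries. The 1 lower-list gene that rose had 57.1 FPKM at 12 h HL and 11.2 FPKM in the replete culture (2.00 ± 0.31, SE, edgeR adjusted p = 0.00318), and 4.87 FPKM at 72 h HL, against 19.6 FPKM at 72 h NL.

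Across the 4 conditions, FPKM was higher in both HL cultures than in both NL cultures for 55 of 75 higher-list genes, an order found in 15.7% of the 8350 genes and fixed in part by the choice of members. It was lower in both HL cultures for 46 of 75 lower-list genes, where 7.34% of the 8350 genes had that order. With 72 h HL read from the deeper library alone, the counts in CPM were 54 and 51 (12.7% and 8.8% of the 8350 genes), and from the shallower alone 51 and 47 (12.8% and 7.84%). The 12 h level was nearer to 72 h HL than to 72 h NL, on log2(FPKM + 1), for 50 higher-list and 63 lower-list genes (60% of all). The highest of the 4 FPKM was that at 72 h HL in 19.3% of the 8350 genes, at 72 h NL in 25.3%, at 12 h HL in 34.4% and in the replete culture in 20.9%. In the higher list it was that at 72 h HL in 45 genes, at 12 h HL in 25, a share near that of all genes, and in the replete culture in 5. In the lower list it was that at 72 h NL in 41 genes, at 12 h HL in 4 and in the replete culture in 30.

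Set against the replete culture, which both comparisons share, the higher list lay above it under HL and near or below it under NL. The median log2 ratio of FPKM + 1 over replete was 2.50 for 72 h HL and -0.40 for 72 h NL, where the 8350 genes had 0.11 in both. Under HL, 58 of the 75 genes were at least 2-fold above replete and 4 at least 2-fold below, where 14.4% and 7.94% of the 8350 genes were. Under NL, 16 were at least 2-fold above and 28 at least 2-fold below, where 13.9% and 9.82% of the 8350 were. The lower list lay below replete under HL, with a median of -1.26, and near it under NL, with 0.28. Under HL, 9 of its 75 genes were at least 2-fold above replete, a share near that of the 8350 genes, and 45 at least 2-fold below. Under NL these counts were 25 and 14. The shares of the 8350 genes are those given for the higher list.

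**Figure D5:**
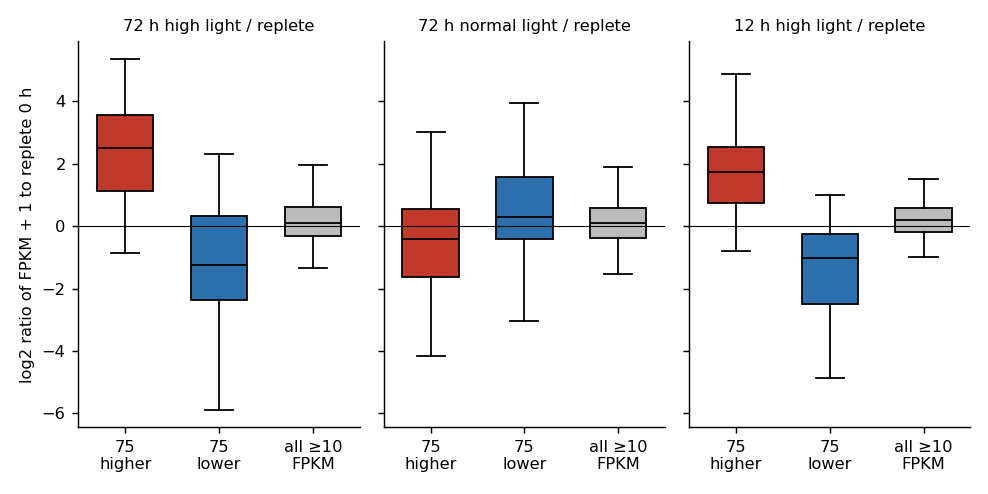
Log2 ratio of FPKM + 1 to the replete culture for 72 h HL, 72 h NL and 12 h HL, in the higher list (red), the lower list (blue) and all genes with at least 10 FPKM (grey). Boxes span the quartiles with the median as a line, and whiskers run from the 5th to the 95th percentile of genes. The red medians lie at 2.50, -0.40 and 1.73, and the blue medians at -1.26, 0.28 and -1.03.

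Both lists held several patterns over the 4 conditions, given here as levels. In the largest group of the higher list, 31 genes were at least 2-fold above replete under HL and within 2-fold of it under NL, with median levels of 21.5 FPKM at 72 h HL, 2.35 at 72 h NL, 13.2 at 12 h HL and 3.06 in the replete culture. A further 16 genes were at least 2-fold above replete under both lights, with medians of 118 FPKM at 72 h HL, 22.4 at 72 h NL, 29.9 at 12 h HL and 2.01 in the replete culture. These were scarce before starvation, and the difference between both lights lay in how far they stood above that level. Another 13 genes kept within 2-fold of replete under HL and were lower under NL, with medians of 34.6 FPKM at 72 h HL, 6.06 at 72 h NL, 54.8 at 12 h HL and 37.6 in the replete culture. In 11 genes HL was above and NL below replete, and in 4 both were below.

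In the lower list, 29 genes were at least 2-fold below replete under HL and within 2-fold of it under NL. Their medians were 13.7 FPKM at 72 h HL, 61.1 at 72 h NL, 13.8 at 12 h HL and 60.5 in the replete culture. Both HL cultures had nearly the same median there, and the 12 h level was not used in the grouping. At 12 h, 22 of these genes were at least 2-fold below replete (4.97% of the 8350 genes were), 6 within 2-fold and 1 at least 2-fold above. Single genes could differ widely, and the last had 57.1 FPKM at 12 h HL and 4.87 FPKM at 72 h HL. The nearness of 72 h NL to the replete culture was set by the grouping. In 14 genes both lights were below replete, and the medians were 11.3 FPKM at 72 h HL, 95.1 at 72 h NL, 23.2 at 12 h HL and 735 in the replete culture. These were abundant transcripts of the replete cell, which at 72 h were scarcest under HL. Another 14 genes were above replete under NL and within 2-fold of it under HL, with medians of 10.6 FPKM at 72 h HL, 32.5 at 72 h NL, 8.61 at 12 h HL and 8.55 in the replete culture. In 9 genes both lights were above replete, with medians of 8.18 FPKM at 72 h HL, 45.5 at 72 h NL, 0.94 at 12 h HL and 1.89 in the replete culture. In all genes of these last groups of 14 and 9, the highest of the 4 levels was that at 72 h NL. The choice of members and the grouping set it above 72 h HL and replete, so only the 12 h level was free. The remaining 9 genes were below replete under HL and above it under NL in 2, and within 2-fold of it under both lights in 7.

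Some members had consecutive ID numbers. In the higher list 18 genes formed 7 such runs, of which 2 held 4 genes each, and in the lower list 8 genes formed 4 pairs. Of the 8350 genes, 0.910% had a neighbouring number in the higher list and 0.970% in the lower list. Within the first run of 4, light ratios were 3.08 to 3.71, and levels were 11.7 to 32.4 FPKM at 72 h HL, 0.50 to 1.55 at 72 h NL, 6.81 to 18.9 at 12 h HL and 0.59 to 2.24 in the replete culture. Of its genes, 3 rose at 12 h in the edgeR test. Within the second run of 4, light ratios were 2.82 to 3.45, and levels were 16.4 to 85.2 FPKM at 72 h HL, 0.68 to 11.2 at 72 h NL, 8.17 to 16.3 at 12 h HL and 1.54 to 4.63 in the replete culture. All 4 of its genes rose at 12 h in that test, in which 11.6% of the 8350 genes rose and 8.95% fell. In the pairs of the higher list either both genes rose or 0 did, the latter also in g10395 and g10396. In the lower list the pair with light ratios of -1.56 and -1.24 fell, and the other pairs had 0 genes called. Other genes next to a member number, 58 for the higher and 73 for the lower list, had median light ratios of 0.14 and -0.19. The study describes some autophagy genes, such as g4008 and g4126, as lying near each other in the genome. It does not say whether genes with consecutive numbers are direct neighbours or near-identical copies. Their counts are therefore uncertain where copies share reads, and the part of shared reads in these values was not tested.

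The median gene length was 1820 bases in the higher list and 1465 bases in the lower list, against 1786 bases over the 8350 genes. More than 1 transcript was listed for 8 higher genes (10.7%) and 7 lower genes (9.33%), against 21.0% of the 8350. In those 8 higher genes, the most abundant transcript held 41.3% to 84.4% of the FPKM difference between both lights. None of the 31 genes that the study names for autophagy or for its quantitative PCR was a member. Of these, 27 reached 10 FPKM at 72 h, and their light ratios ran over -0.35 to 0.63 with a median of -0.03.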

How the data were processed

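RNA of 32 samples in 4 conditions was sequenced and each condition was deposited as 1 pooled profile. Per the labels and the study's methods, the authors used CASAVA 1.8, cutadapt 1.1, Bowtie 1.0.0 and RSEM 1.2.9 on transcript models of this alga. The deposited expected counts, TPM and FPKM are RSEM estimates per gene and transcript, with 95% intervals for FPKM. A further deposited table holds a score per gene and condition, the authors' mean of counts normalised by DESeq size factors, beside their own fold changes and p-values, which were not used.

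Each condition has 3 such means, scaled differently in each pairing. They were solved exactly for 2 whole-number libraries per condition (100% of values whole within 0.001). The design had foreseen pooled values without a test. The edgeR quasi-likelihood test on the solved counts (R 4.3.3, edgeR 4.0.16, TMM, 8 libraries in 4 conditions, filterByExpr) was added after seeing the data and used only for 12 h HL over replete, since the 72 h contrast chose the members. DESeq2 1.42.0 was an alternative. With 2 libraries per condition and no labelled identity, p-values measure only the spread between these libraries, estimated over all 8. The SE of a log2 fold change was its size divided by the square root of the F statistic of the test. Log2 ratios of FPKM use a pseudocount of 1, which understates changes of low genes. The procedures were tested on simulated data.

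The members and lists were chosen with earlier results of these data known. Genes named by ID are the 2 highest and 2 lowest light ratios and the 2 largest rises and falls at 12 h among members. The most abundant member of each list is given without ID.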

Additional observations from a re-analysis of the deposited data

How the results depend on the processing

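Among 188 alternative values, 174 stayed within 1.5 times of the reported value and 14 moved beyond that. Changes of sign close to 0 were not counted as reversals, of which there were 0. With a pseudocount of 10 FPKM in place of 1, the median light ratio of the higher list was 1.63, its share at least 2-fold higher at 12 h was 38.7%, its median 12 h ratio was 0.85 and its median ratio of 72 h HL over replete was 1.53. With a minimum of 1 FPKM, and with no minimum, the lower list had a median 12 h ratio of -1.97 and a median of -1.86 for 72 h HL over replete. With 50 genes in each list these were -2.0 and -1.86. With 150 genes in each list the median 12 h ratio of the higher list was 1.05. The median of the lower list for 72 h NL over replete, 0.28, was near 0. It ran over -0.10 to 0.56 and so changed sign under some alternatives. The cause of these shifts was not tested.

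Alternatives on the library counts were chosen after seeing the data. With each HL library left out in turn, the median light ratio was 2.14 to 3.13 in the higher and -1.94 to -1.77 in the lower list. With each of the 4 libraries of the 12 h comparison left out in turn, edgeR called 20 to 32 higher-list genes higher and 33 to 37 lower-list genes lower. The lone library was then assumed to vary like the other conditions. With all libraries, DESeq2 called 48 higher-list genes higher and 46 lower-list genes lower, where 18.3% of all tested genes rose and 12.8% fell. Relative log expression scaling called 39 and 43 (15.1% and 9.59% of all tested genes), and no filter 39 and 42 (15.7% and 8.31%). The 4 libraries alone gave 40 and 42 (11.3% and 6.84%). No paired analysis was possible because the solved libraries carry no replicate number. Each library held at least 30976126 counts, and the spread between the 2 libraries of a condition exceeded counting noise in all 4 conditions.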
